A study of Mus musculus with 15 samples.

Results

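The 32 genes described here encode enzymes of cholesterol and fatty acid synthesis and proteins that sense sterols, carry them or regulate sterol genes. They were taken by symbol from a fixed list, are 32 of the 16886 genes in the deposited gene table, and all 32 were among the 12198 genes with enough counts to be tested. They fall into 4 groups by role. The first 2 hold 7 genes from acetyl-CoA to farnesyl diphosphate and 11 from squalene to cholesterol, squalene synthase included. The others hold 6 genes of sterol sensing, regulation and transport, and 8 of fatty acid synthesis and desaturation.

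The libraries came from macrophages of bone of C57BL6J mice that were homozygous VLDLR knockouts (VLDLR_KO), homozygous ROBO4 knockouts (ROBO4_KO) or wild type (WT), with 5 libraries of each. VLDLR is a receptor of the low-density lipoprotein receptor family, and ROBO4 is a receptor known from endothelium. All cultures, WT included, were kept for 14 days in M-CSF at 20 ng/ml, which keeps macrophages alive and matures them. The labels give no age, do not describe the deleted parts of the genes, and do not say whether replicates are separate animals or separate cultures, and the tests therefore speak of the variation among these libraries alone. The sample codes have 2 forms that the labels do not explain. The digit stands before the letter B in 2 VLDLR_KO, 2 ROBO4_KO and 3 WT libraries (here digit-before), and after it in 3 VLDLR_KO, 3 ROBO4_KO and 2 WT libraries (here digit-after). Genotypes were therefore compared within each form.

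Totals ranged from 18132866 to 19005966 estimated counts per library. Vldlr was at 0.01 to 0.07 FPKM (fragments per kilobase and per sequencing depth) in the VLDLR_KO libraries, 0.01 to 0.31 FPKM in ROBO4_KO and 0.07 to 0.31 FPKM in WT, and Robo4 did not exceed 0.07 FPKM in any library, so neither gene is a firm check of the labels. Macrophage markers were present throughout: Cd68, a lysosomal membrane protein of macrophages, had at least 2334.7 FPKM in the digit-before libraries. VLDLR_KO replicate 2 stood apart, with 5.03% of its counts in ribosomal protein genes against 2.71% to 3.86% in the other 14 libraries. WT replicate 3 and ROBO4_KO replicate 2 had the highest summed levels of stromal cell markers, at 43.9 and 41.4 FPKM. Results that rest on these 3 libraries are also given without them.

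Mammalian cells make cholesterol from acetyl-CoA through mevalonate, isoprenoid diphosphates, squalene and lanosterol. When membranes of the endoplasmic reticulum are poor in sterols, SCAP carries the transcription factors SREBP-1 and SREBP-2 to the Golgi, where they are cleaved, and the released parts switch on sterol and fatty acid genes. When sterols are plentiful, INSIG proteins hold SCAP and SREBP back. Macrophages also take up cholesterol from lipoproteins and dead cells and export it through transporters under control of the liver X receptors (LXR).

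In the digit-before libraries, genes of all 4 groups were lower in VLDLR_KO than in WT. Of the 32 genes, 23 were called lower and 1 higher (edgeR quasi-likelihood test, adjusted p under 0.05 over all tested genes), where 15.6% of all tested genes were called lower and 17.6% higher (33.2% in all). Their median log2 fold change was -0.85, against -0.0017 over all tested genes. In the digit-after libraries, 1 gene was called lower and 2 higher, where 7.43% of tested genes were called lower and 5.94% higher, and the median log2 fold change of the 32 genes was 0.0047. By FPKM alone, 24 genes were lower and 1 higher in digit-before VLDLR_KO than in WT without overlap, against 29.3% and 21.5% of tested genes. In the digit-after form, 7 were lower and 8 higher without overlap, against 20.6% and 29.6%. In these bulk libraries, fewer cells of a type and less RNA per cell cannot be told apart.

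**Figure D1:**
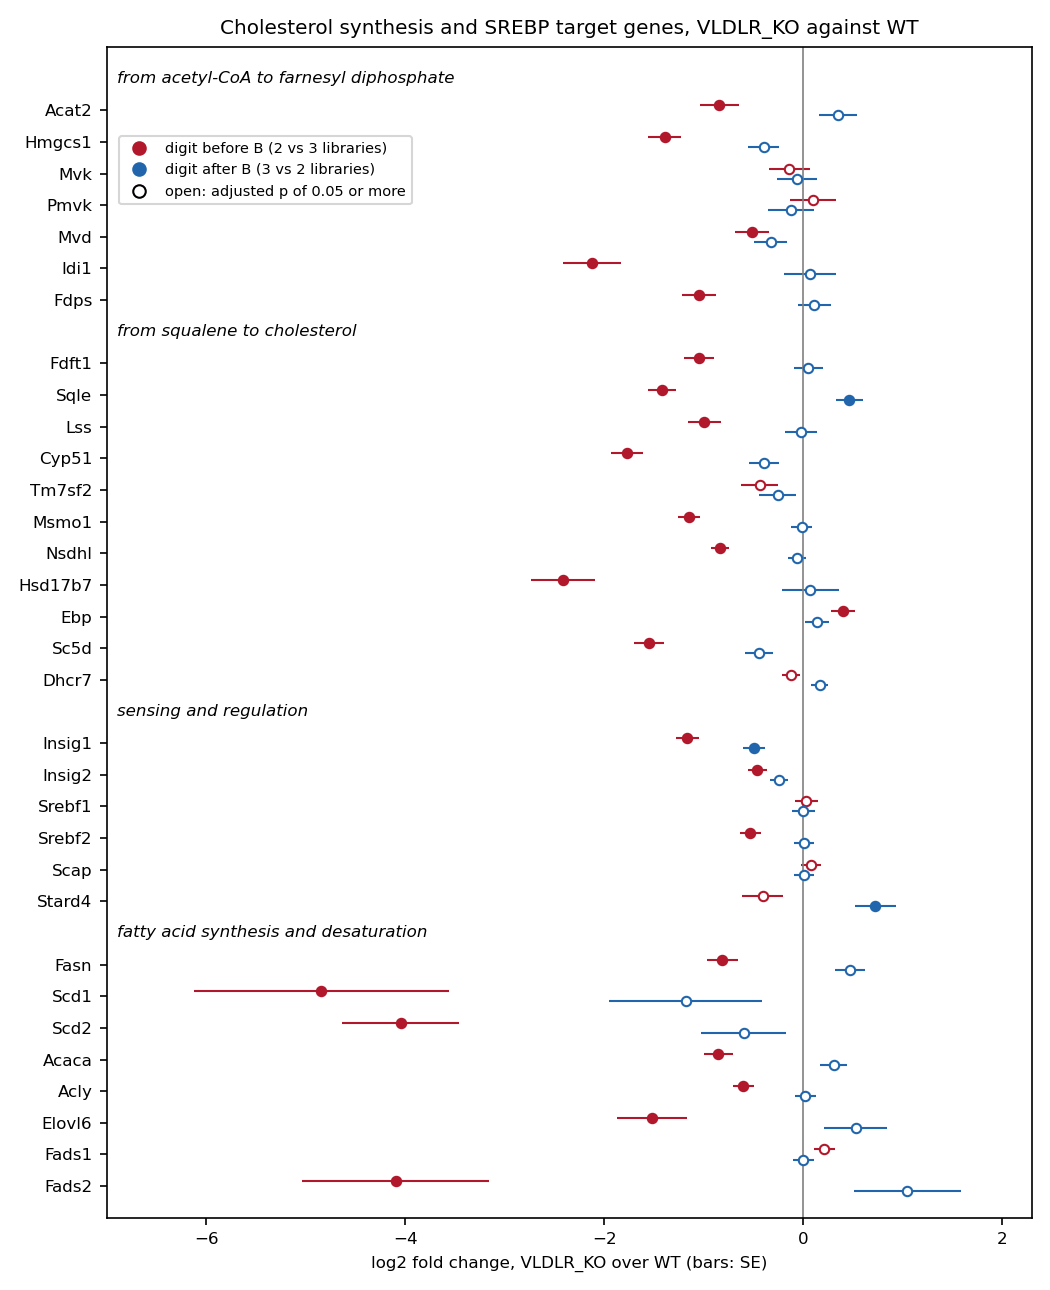
Log2 fold change of VLDLR_KO over WT (horizontal axis) for the 32 genes, by role, in the digit-before libraries (red, 2 against 3) and the digit-after libraries (blue, 3 against 2). Bars are standard errors and filled points have an adjusted p under 0.05; red points lie left of 0 for 27 of the 32 genes, while blue points lie on both sides.

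The summed level of the 32 genes was 435 and 483 FPKM in the 2 digit-before VLDLR_KO libraries, 742 and 799 FPKM in ROBO4_KO, and 777 to 917 FPKM in WT. In the digit-after libraries it was 706 to 881 FPKM in VLDLR_KO, 660 to 753 FPKM in ROBO4_KO, and 762 and 775 FPKM in WT. Only the digit-before VLDLR_KO pair lay apart from the rest, below all 13 other libraries. The same held for each of the 4 role groups summed on its own. For 19 of the 32 genes taken singly, both digit-before VLDLR_KO libraries were below all 13 others, which was true of 11.8% of tested genes, and for 0 of them both were above, which was true of 11.1%.

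**Figure D2:**
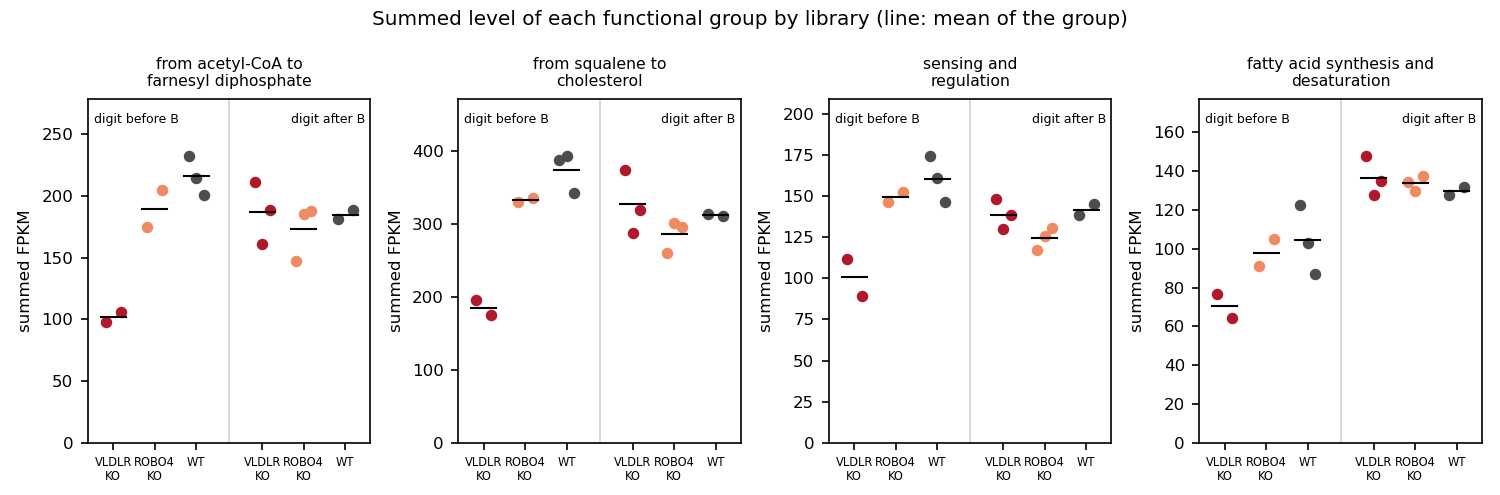
Summed FPKM of each role group (vertical axis) in each of the 15 libraries, by genotype and form of the sample code; lines are group means. In every panel both digit-before VLDLR_KO libraries lie below all other libraries, for example at 97.7 and 106 FPKM for the acetyl-CoA to farnesyl diphosphate genes, against 200 to 232 FPKM in digit-before WT.

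The promoters of 6 genes are shown because these genes share the pathway but not the direction: the first 5 were called lower in digit-before VLDLR_KO and Ebp was called higher. Each is the 250 bases before the annotated start, 5′ to 3′ on the gene's strand, from RefSeq on GRCm38.p6. Capitals mark CCAAT boxes on either strand (CCAAT or ATTGG), to which the SREBP partner NF-Y binds, and the sterol regulatory element searched as TCACNCCAC on both strands.
Hmgcs1 (chr13:119690101-119690350, plus strand): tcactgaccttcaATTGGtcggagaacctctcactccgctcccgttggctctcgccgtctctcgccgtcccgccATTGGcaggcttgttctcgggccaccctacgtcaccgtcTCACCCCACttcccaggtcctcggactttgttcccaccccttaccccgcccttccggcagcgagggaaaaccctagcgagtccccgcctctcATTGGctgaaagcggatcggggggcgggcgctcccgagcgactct
Idi1 (chr13:8885356-8885605, plus strand): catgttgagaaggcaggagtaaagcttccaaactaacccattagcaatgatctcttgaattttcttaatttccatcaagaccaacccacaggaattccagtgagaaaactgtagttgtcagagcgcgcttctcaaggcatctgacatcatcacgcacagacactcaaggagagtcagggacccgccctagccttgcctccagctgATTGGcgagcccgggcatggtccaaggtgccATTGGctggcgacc
Msmo1 (chr8:64733579-64733828, minus strand): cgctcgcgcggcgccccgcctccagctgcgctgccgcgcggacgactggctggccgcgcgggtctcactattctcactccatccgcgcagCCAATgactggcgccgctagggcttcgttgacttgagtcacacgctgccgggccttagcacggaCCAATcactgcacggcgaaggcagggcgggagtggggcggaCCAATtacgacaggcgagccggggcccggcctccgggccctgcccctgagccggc
Hsd17b7 (chr1:169969206-169969455, minus strand): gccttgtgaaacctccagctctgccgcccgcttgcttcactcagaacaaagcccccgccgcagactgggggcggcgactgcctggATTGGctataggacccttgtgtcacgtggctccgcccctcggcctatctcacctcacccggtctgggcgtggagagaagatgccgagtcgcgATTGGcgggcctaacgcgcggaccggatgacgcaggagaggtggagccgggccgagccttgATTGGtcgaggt
Insig1 (chr5:28071162-28071411, plus strand): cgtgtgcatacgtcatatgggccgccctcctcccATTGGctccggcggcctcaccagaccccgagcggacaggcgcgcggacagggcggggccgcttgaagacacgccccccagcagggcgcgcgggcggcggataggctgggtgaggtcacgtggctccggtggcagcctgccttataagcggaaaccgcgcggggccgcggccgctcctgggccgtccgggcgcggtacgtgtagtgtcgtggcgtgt
Ebp (chrX:8193513-8193762, minus strand): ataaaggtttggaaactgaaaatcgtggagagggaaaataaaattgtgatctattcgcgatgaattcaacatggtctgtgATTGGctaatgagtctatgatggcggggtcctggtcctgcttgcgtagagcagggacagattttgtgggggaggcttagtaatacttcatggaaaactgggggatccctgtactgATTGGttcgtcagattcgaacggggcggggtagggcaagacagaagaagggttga

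Of the 32 genes, 25 had a promoter entry, with 33 windows in all, and 7 had none. A gene was counted where any of its windows held the motif. A CCAAT box was found in 19 of the 25 (76.0%), against 40.9% of 9783 tested genes and 37.5% of all 27025 genes with a promoter. It was found in 13 of the 18 genes with an entry that were called lower in digit-before VLDLR_KO and in 6 of the 7 others. TCACNCCAC was found in 1 of the 25, Hmgcs1, starting 137 bases before the start, against 1.19% of tested genes. Only this form of the element was searched, so other forms and sites outside the windows were not counted. The E-box CACGTG was found in 5 of 25 (20.0%) against 978 of 9783 tested genes, and the GC box GGGCGG, on either strand, in 21 of 25 (84.0%) against 63.3%. Matches of different motifs were counted separately, also where they overlapped, and they describe the windows only.

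The first group makes isoprenoid diphosphates. In digit-before VLDLR_KO, 5 of its 7 genes fell relative to WT, with a median log2 fold change of -0.84 over all 7. Hmgcs1, the cytosolic HMG-CoA synthase, was at 22.0 and 13.6 FPKM in VLDLR_KO replicates 1 and 2, 45.5 and 47.1 FPKM in ROBO4_KO replicates 1 and 2, and 51.5, 53.5 and 41.3 FPKM in WT replicates 3, 4 and 5. Both VLDLR_KO values were lower than in any other library of the series. Its log2 fold change against WT was -1.39 ± 0.17 (SE, adjusted p = 7.4e-05). In the digit-after libraries Hmgcs1 was at 37.2, 34.9 and 31.2 FPKM in VLDLR_KO, 41.1, 39.3 and 36.4 FPKM in ROBO4_KO, and 40.7 and 46.3 FPKM in WT. VLDLR_KO was again below WT without overlap, but the difference of -0.40 ± 0.16 was not called (adjusted p = 0.11).

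Idi1, which interconverts the isopentenyl and dimethylallyl diphosphates, had the lowest fold change of the group. It was at 8.69 and 4.64 FPKM in digit-before VLDLR_KO, 26.0 and 28.8 FPKM in ROBO4_KO, and 32.8, 34.1 and 24.6 FPKM in WT. All 5 other digit-before libraries were above both VLDLR_KO libraries, and the log2 fold change against WT was -2.12 ± 0.29 (adjusted p = 0.00021). In the digit-after libraries Idi1 was at 37.2, 17.98 and 26.8 FPKM in VLDLR_KO, 18.7, 25.2 and 30.0 FPKM in ROBO4_KO, and 23.2 and 26.1 FPKM in WT. There the VLDLR_KO libraries held both the highest and the lowest value (log2 fold change 0.07 ± 0.26, adjusted p = 0.89).

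Fdps, the farnesyl diphosphate synthase, was at 33.6 and 42.9 FPKM in digit-before VLDLR_KO, 64.1 and 79.6 FPKM in ROBO4_KO, and 92.1, 77.8 and 83.3 FPKM in WT. The groups of VLDLR_KO and WT did not overlap (log2 fold change -1.05 ± 0.17, adjusted p = 0.00086). In the digit-after libraries its range was 64.1 to 87.1 FPKM in VLDLR_KO, 50.5 to 74.4 FPKM in ROBO4_KO, and 65.7 to 69.1 FPKM in WT, and these ranges overlapped. Acat2, the cytosolic acetoacetyl-CoA thiolase, was at 5.01 and 6.27 FPKM in digit-before VLDLR_KO, 8.48 and 9.63 FPKM in ROBO4_KO, and 12.2, 10.5 and 9.74 FPKM in WT. VLDLR_KO was lower without overlap (log2 fold change -0.84 ± 0.20, adjusted p = 0.0066), and digit-after VLDLR_KO, at 9.18 to 11.8 FPKM, was above WT, at 7.77 to 8.11 FPKM, without a call (adjusted p = 0.26). The gene model of Acat2 overlaps Tcp1, and the sources used here do not state whether reads were counted by strand, so its level is uncertain. Mvd, the mevalonate diphosphate decarboxylase, also fell (log2 fold change -0.52 ± 0.17, adjusted p = 0.034), a call that was lost without VLDLR_KO replicate 1 or any of WT replicates 3, 4 and 5. Mvk and Pmvk, the mevalonate and phosphomevalonate kinases, had log2 fold changes of -0.14 and 0.10 and were not called.

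The second group turns farnesyl diphosphate into squalene, lanosterol and cholesterol. In digit-before VLDLR_KO, 8 of its 11 genes fell and 1 rose relative to WT, and the median log2 fold change was -1.05. Sqle, the squalene epoxidase, was at 12.9 and 10.1 FPKM in VLDLR_KO, 27.8 and 30.3 FPKM in ROBO4_KO, and 36.2, 35.5 and 26.0 FPKM in WT. The VLDLR_KO pair was lower than every other library of the series (log2 fold change -1.42 ± 0.14, adjusted p = 1.9e-05). In the digit-after form the order was the opposite: Sqle was at 44.8, 33.5 and 39.6 FPKM in VLDLR_KO, 21.5, 24.6 and 25.5 FPKM in ROBO4_KO, and 26.7 and 27.6 FPKM in WT. All 3 VLDLR_KO libraries were above all 5 others, and the log2 fold changes were 0.46 ± 0.14 over WT (adjusted p = 0.041) and 0.70 ± 0.12 over ROBO4_KO (adjusted p = 0.0019). The call against WT held in 7 of the 15 fits that left out a library each, with an adjusted p of up to 0.22, and the call against ROBO4_KO held in all 15.

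Cyp51, the lanosterol demethylase, was at 9.23 and 6.35 FPKM in digit-before VLDLR_KO, 26.6 and 27.5 FPKM in ROBO4_KO, and 29.9, 28.9 and 25.0 FPKM in WT. It had the smallest adjusted p of the 32 genes in this comparison, the log2 fold change being -1.77 ± 0.16 (adjusted p = 8.5e-06). VLDLR_KO lay below both other genotypes, which overlapped each other. For the digit-after codes it was at 27.2, 17.4 and 21.7 FPKM in VLDLR_KO, 22.3, 27.6 and 26.9 FPKM in ROBO4_KO, and 27.4 and 27.8 FPKM in WT. VLDLR_KO there was lower without overlap against WT, but was not called (log2 fold change -0.39 ± 0.15, adjusted p = 0.10).

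Msmo1, the methylsterol monooxygenase and the gene with the highest median level of the 32 (124 FPKM over the 15 libraries), was at 78.2 and 62.0 FPKM in digit-before VLDLR_KO. It was at 152 and 148 FPKM in ROBO4_KO and at 167, 174 and 152 FPKM in WT, with no overlap and a log2 fold change of -1.15 ± 0.11 against WT (adjusted p = 1.3e-05). Digit-after Msmo1 was at 110 to 149 FPKM in VLDLR_KO, 99.8 to 117 FPKM in ROBO4_KO, and 121 and 125 FPKM in WT. VLDLR_KO overlapped both other genotypes there, and ROBO4_KO lay below WT without a call. Sc5d, the lathosterol desaturase, was at 15.3 and 9.0 FPKM in digit-before VLDLR_KO, 31.4 and 30.5 FPKM in ROBO4_KO, and 45.6, 45.8 and 37.3 FPKM in WT (log2 fold change -1.55 ± 0.15, adjusted p = 1.5e-05). The 3 genotypes did not overlap there, and ROBO4_KO lay between the others. Among the digit-after libraries it was at 30.5, 24.3 and 25.3 FPKM in VLDLR_KO, 22.2, 25.4 and 22.4 FPKM in ROBO4_KO, and 32.9 and 34.4 FPKM in WT. Both knockouts lay below WT without overlap, with log2 fold changes of -0.45 ± 0.14 for VLDLR_KO (adjusted p = 0.055) and -0.55 ± 0.14 for ROBO4_KO (adjusted p = 0.090), and neither was called in this fit. The authors' deposited DESeq2 q-values for these were 0.0049 and 0.00027.

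Among the remaining genes of this group, Hsd17b7, a sterol ketoreductase, had the lowest fold change in digit-before VLDLR_KO, -2.42 ± 0.32, with 98 and 49 counts against 341 to 483 counts in WT (adjusted p = 0.00018). Fdft1, the squalene synthase, Lss, the lanosterol synthase, and Nsdhl, a sterol dehydrogenase, fell by 1.05, 0.99 and 0.84 on the log2 scale. Ebp, the sterol isomerase, was the gene that rose: it was at 37.2 and 46.2 FPKM in VLDLR_KO, 31.6 and 33.4 FPKM in ROBO4_KO, and 32.4, 31.9 and 36.8 FPKM in WT. The VLDLR_KO values were above the WT values, the nearest of them by less than 1 FPKM (log2 fold change 0.40 ± 0.12, adjusted p = 0.022). Its call was lost without WT replicate 3, WT replicate 4 or VLDLR_KO replicate 2. Tm7sf2 and Dhcr7, which encode sterol reductases, had log2 fold changes of -0.44 and -0.12 and were not called.

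**Figure D3:**
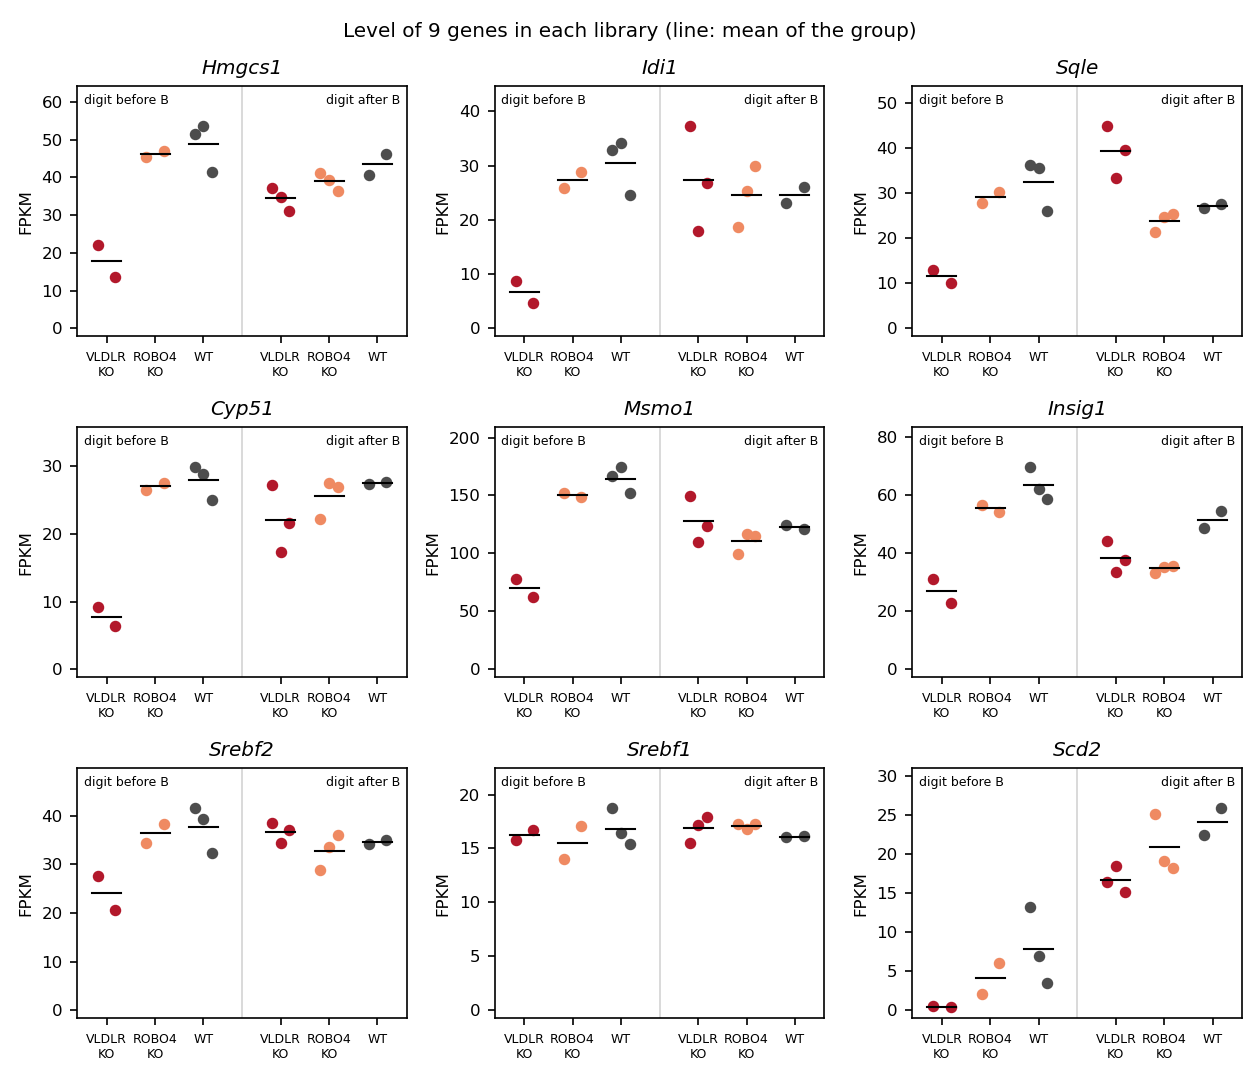
FPKM (vertical axis, from 0) of 9 of the genes in each of the 15 libraries by genotype and form of the sample code; lines are group means. Sqle is below all other libraries in digit-before VLDLR_KO, at 12.9 and 10.1 FPKM, and above all digit-after ROBO4_KO and WT libraries in digit-after VLDLR_KO, at 33.5 to 44.8 FPKM, while Srebf1 spans 14.0 to 18.7 FPKM over the 15 libraries, with the digit-before genotypes overlapping.

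The genes of sensing, regulation and transport split. In digit-before VLDLR_KO, 3 of the 6 (Insig1, Insig2 and Srebf2) fell relative to WT and the median log2 fold change was -0.44. Insig1 and Insig2 encode the proteins that retain SCAP and SREBP in the endoplasmic reticulum, and Insig1 is itself a well-known SREBP target. Insig1 was at 31.0 and 22.7 FPKM in digit-before VLDLR_KO, 56.6 and 54.3 FPKM in ROBO4_KO, and 69.5, 62.1 and 58.6 FPKM in WT. The order VLDLR_KO, ROBO4_KO, WT held without overlap (log2 fold change of VLDLR_KO against WT -1.16 ± 0.12, adjusted p = 2.2e-05). Digit-after Insig1 was at 44.2, 33.6 and 37.5 FPKM in VLDLR_KO, 33.2, 35.3 and 35.7 FPKM in ROBO4_KO, and 48.5 and 54.5 FPKM in WT. Both knockouts were called lower than WT, by -0.49 ± 0.11 in VLDLR_KO (adjusted p = 0.013) and by -0.62 ± 0.11 in ROBO4_KO (adjusted p = 0.012), and they overlapped each other. The call in VLDLR_KO was lost without WT replicate 2 (adjusted p = 0.17), and that in ROBO4_KO without WT replicate 2 or ROBO4_KO replicate 4 or 5 (adjusted p up to 0.29).

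Insig2 was at 13.4 and 10.9 FPKM in digit-before VLDLR_KO, 17.7 and 16.7 FPKM in ROBO4_KO, and 17.5, 17.8 and 17.4 FPKM in WT (log2 fold change -0.46 ± 0.10, adjusted p = 0.0035). The other 2 groups overlapped and VLDLR_KO lay below both. For the digit-after codes it was at 12.8 to 14.2 FPKM in VLDLR_KO, 14.2 to 14.5 FPKM in ROBO4_KO, and 15.04 to 15.8 FPKM in WT, and no difference was called. Srebf2, which encodes SREBP-2, the main activator of sterol genes, was at 27.6 and 20.7 FPKM in digit-before VLDLR_KO, 34.4 and 38.4 FPKM in ROBO4_KO, and 41.6, 39.4 and 32.4 FPKM in WT. VLDLR_KO was lower without overlap (log2 fold change -0.53 ± 0.11, adjusted p = 0.0029). With the digit after B Srebf2 ranged from 34.4 to 38.6 FPKM in VLDLR_KO, 28.9 to 36.1 FPKM in ROBO4_KO, and 34.2 to 35.0 FPKM in WT, which overlapped. Leaving out the 3 libraries that stood apart kept 1 VLDLR_KO, 1 ROBO4_KO and 2 WT digit-before libraries, so the spread came from the other groups and a lone library was assumed to vary like them. In that fit several digit-before differences were no longer called. Insig2, Srebf2 and, of the fatty acid genes, Acly were among those no longer called lower, and Ebp was no longer called higher.

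Srebf1, which encodes the SREBP-1 forms, was at 15.8 and 16.7 FPKM in digit-before VLDLR_KO, 14.0 and 17.1 FPKM in ROBO4_KO, and 18.7, 16.4 and 15.4 FPKM in WT, and all groups overlapped (log2 fold change 0.03 ± 0.12, adjusted p = 0.86). Among the digit-after libraries it was at 15.6 to 17.9 FPKM in VLDLR_KO, 16.8 to 17.3 FPKM in ROBO4_KO, and 16.1 FPKM in both WT libraries. There ROBO4_KO lay above WT without overlap, the VLDLR_KO range overlapped both, and no difference was called. The 6 transcripts of Srebf1 that could be tested gave no call in any comparison. Scap, the escort protein, was at 12.2 to 14.96 FPKM in all 15 libraries, with a log2 fold change of 0.08 ± 0.10 in digit-before VLDLR_KO against WT (adjusted p = 0.58).

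Stard4 encodes a cytosolic sterol transfer protein and is a known SREBP-2 target. It was at 10.6 and 4.78 FPKM in digit-before VLDLR_KO, 11.2 and 12.1 FPKM in ROBO4_KO, and 12.6, 11.5 and 9.40 FPKM in WT. VLDLR_KO replicate 1 lay within the WT range and VLDLR_KO replicate 2 below it, and no difference was called (log2 fold change -0.41 ± 0.21, adjusted p = 0.14). Digit-after Stard4 was at 22.8, 15.9 and 19.3 FPKM in VLDLR_KO, 9.64, 11.3 and 12.8 FPKM in ROBO4_KO, and 10.6 and 11.2 FPKM in WT. VLDLR_KO was higher than every library of the other genotypes (log2 fold change over WT 0.73 ± 0.21, adjusted p = 0.035; over ROBO4_KO 0.74 ± 0.18, adjusted p = 0.018). Leaving out WT replicate 1, 2 or 4 or VLDLR_KO replicate 3 or 5 ended the call against WT, with an adjusted p of up to 0.19.

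The fatty acid genes held the lowest fold changes of all. In digit-before VLDLR_KO, 7 of the 8 genes fell relative to WT and the median log2 fold change was -1.19. Acly, the ATP citrate lyase that supplies cytosolic acetyl-CoA, was at 31.8 and 23.5 FPKM in VLDLR_KO, 42.0 and 44.5 FPKM in ROBO4_KO, and 48.6, 45.5 and 38.6 FPKM in WT (log2 fold change -0.60 ± 0.11, adjusted p = 0.0017). Acaca, the acetyl-CoA carboxylase, was at 3.33 and 2.47 FPKM in VLDLR_KO, 4.79 and 5.39 FPKM in ROBO4_KO, and 6.18, 5.57 and 4.64 FPKM in WT (log2 fold change -0.85 ± 0.14, adjusted p = 0.00096). Neither gene overlapped between VLDLR_KO and the other genotypes in this form. For the digit-after codes, Acaca was at 9.69, 7.60 and 8.33 FPKM in VLDLR_KO, above ROBO4_KO at 6.59 to 7.32 FPKM and WT at 6.19 and 6.97 FPKM, without a call (adjusted p = 0.17 against WT). Digit-after Acly ranged over 47.4 to 54.9 FPKM in VLDLR_KO, 45.7 to 53.7 FPKM in ROBO4_KO, and 47.4 to 47.8 FPKM in WT.

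Fasn, the fatty acid synthase, was at 8.90 and 8.55 FPKM in digit-before VLDLR_KO, 13.6 and 14.95 FPKM in ROBO4_KO, and 18.6, 16.5 and 13.6 FPKM in WT. VLDLR_KO was lower without overlap (log2 fold change -0.81 ± 0.15, adjusted p = 0.0022). Digit-after Fasn was at 19.2, 13.3 and 17.9 FPKM in VLDLR_KO, 9.66, 11.6 and 13.9 FPKM in ROBO4_KO, and 11.3 and 11.8 FPKM in WT. Fasn rose there against ROBO4_KO (log2 fold change 0.50 ± 0.13, adjusted p = 0.028), although the ranges overlapped, and missed the call against WT, where they did not overlap (0.47 ± 0.15, adjusted p = 0.059).

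Scd2, a stearoyl-CoA desaturase, was at 0.48 and 0.42 FPKM in digit-before VLDLR_KO, 2.12 and 6.01 FPKM in ROBO4_KO, and 13.2, 6.89 and 3.52 FPKM in WT (log2 fold change -4.04 ± 0.59, adjusted p = 0.00034). The values differed widely within ROBO4_KO and within WT, and the VLDLR_KO pair was lowest. Among the digit-after libraries Scd2 was at 16.4, 18.5 and 15.1 FPKM in VLDLR_KO, 25.2, 19.2 and 18.2 FPKM in ROBO4_KO, and 22.4 and 25.8 FPKM in WT. VLDLR_KO was below WT without overlap but was not called (log2 fold change -0.60 ± 0.42, adjusted p = 0.39), and all 8 digit-after libraries were above all 7 digit-before libraries.

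Scd1 and Fads2, the stearoyl-CoA and the delta-6 desaturase, were near the counting limit in digit-before VLDLR_KO. Scd1 had 5 counts there in all, against 245 in the WT libraries of that form, a ratio of 0.0313 per total count (exact 95% interval 0.0101 to 0.074). Fads2 had 3 against 90 counts, a ratio of 0.0511 (0.0103 to 0.154). Both were called lower in the fit (adjusted p = 0.013 and 0.0062), but such fitted fold changes depend on the prior count, and the intervals cover counting error only. Elovl6, an elongase, fell (log2 fold change -1.52 ± 0.35, adjusted p = 0.0066), and Fads1, the delta-5 desaturase, did not pass the test (0.21 ± 0.11, adjusted p = 0.13). Among these, the call of Scd1 was lost without either of the VLDLR_KO libraries, and that of Elovl6 without VLDLR_KO replicate 2.

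Stromal marker levels also differed between the digit-before libraries. Of the 8 stromal markers, 7 could be tested and 5 were called lower in VLDLR_KO than in WT, against 15.6% of all tested genes. The summed level of all 8 was 0.61 and 4.86 FPKM in VLDLR_KO replicates 1 and 2, 7.64 and 41.4 FPKM in ROBO4_KO replicates 1 and 2, and 43.9, 17.8 and 9.52 FPKM in WT replicates 3, 4 and 5. ROBO4_KO replicate 1 and WT replicate 5, with the lower sums of their genotypes, also had the lower Scd1, Scd2 and Fads2 levels. In VLDLR_KO, replicate 1 had the lower stromal sum, and Scd2 was at 0.48 and 0.42 FPKM in replicates 1 and 2. These Scd2 levels were low and close together, so their order carries little weight. Scd1 and Fads2 did not exceed 0.05 and 0.08 FPKM in these libraries. Fads1 was at 28.7 to 31.3 FPKM in VLDLR_KO, 26.9 to 29.4 FPKM in ROBO4_KO and 24.6 to 30.7 FPKM in WT, which overlapped. Lum was at 0 FPKM in all digit-before libraries, and Col1a1 and Dcn were at 0 FPKM in 1 VLDLR_KO library each. In the digit-after form the stromal sum was 2.62 to 8.52 FPKM, while Scd2 was at 15.1 to 25.8 FPKM. Adipocyte markers summed to at most 0.53 FPKM in any library. The part of stromal cells in the result was not tested.

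Cycling cell markers were also lower in digit-before VLDLR_KO than in WT. All 9 had a log2 fold change below 0, with a median of -1.33. By FPKM all 9 were lower without overlap, against 29.3% of tested genes. Of the 9 markers, 3 were called lower, against 15.6% of tested genes. In the digit-after form all 9 had a log2 fold change above 0, and 2 were called higher, against 5.94% of tested genes. Pcna made up most of their sum, and no marker was at 0 in any library. Their summed level was 253 and 291 FPKM in VLDLR_KO, 615 and 637 FPKM in ROBO4_KO, and 606 to 693 FPKM in WT, and in the digit-after libraries 616 to 940 FPKM in VLDLR_KO, 628 to 1060 FPKM in ROBO4_KO, and 567 and 655 FPKM in WT. In digit-before VLDLR_KO against WT, 17.6% of tested genes were called higher and 15.6% lower. The 12 macrophage markers moved in both directions there, with 7 called higher and 3 lower. Their summed level was 32247 and 38490 FPKM in VLDLR_KO, 13404 and 13773 FPKM in ROBO4_KO, and 11288 to 14008 FPKM in WT. Lyz2, the lysozyme of macrophages, made up most of the VLDLR_KO sum, at 23198 to 27002 FPKM, against 7208.1 to 7440.4 FPKM in ROBO4_KO and 5727.2 to 7157.8 FPKM in WT. Itgam, an integrin of myeloid cells, was at 27.3 to 62.2 FPKM in VLDLR_KO, 95.1 to 115 FPKM in ROBO4_KO, and 85.01 to 112 FPKM in WT. The part of proliferation or of culture state in the sterol result was not tested. Without the 3 libraries that stood apart, 18 of the 32 genes were called lower in digit-before VLDLR_KO and 0 higher, in a fit with 1 VLDLR_KO library of that form, and leaving out any single library left 22 to 24 calls.

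The difference between the forms was tested as an interaction. For 21 of the 32 genes the log2 fold change of VLDLR_KO over WT was lower in the digit-before than in the digit-after libraries, and for 0 it was higher, where 6.57% and 7.93% of tested genes were called in these directions. The median of this difference was -1.05. Sqle had the smallest adjusted p, with a difference of -1.88 ± 0.20 (adjusted p = 0.00015), followed by Msmo1, with -1.14 ± 0.15 (adjusted p = 0.00075). The difference was also called for Stard4 (-1.13 ± 0.29, adjusted p = 0.025), Srebf2 (-0.54 ± 0.15, adjusted p = 0.030) and Insig1 (-0.67 ± 0.16, adjusted p = 0.020). It was not called for Insig2 (-0.22 ± 0.13, adjusted p = 0.27), Srebf1 (0.03 ± 0.16, adjusted p = 0.91) or Scap (0.07 ± 0.14, adjusted p = 0.77). Without the 3 libraries that stood apart, 14 genes were called, and 13 were called without WT replicate 1, the fewest of the 15 fits that left out a library. The difference for Srebf2 was called in 8 of those fits, that for Stard4 in 10 and that for Insig1 in 13. Form and whatever else separates the codes cannot be told apart.

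**Figure D4:**
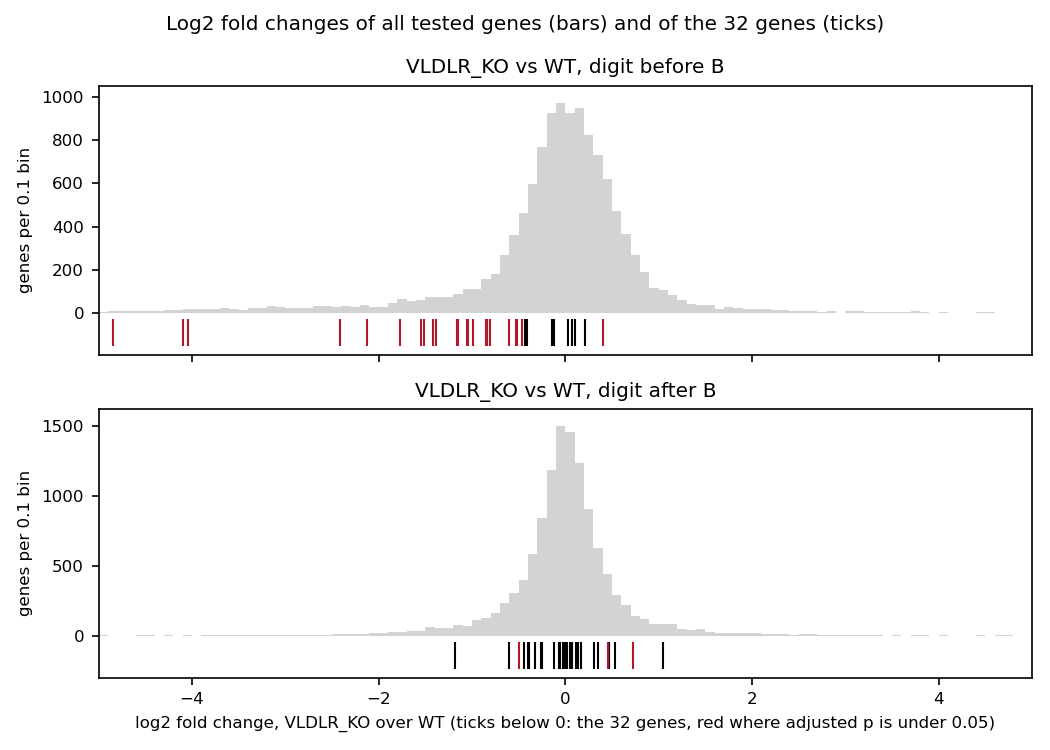
Distribution of the log2 fold changes (horizontal axis) of VLDLR_KO over WT for all 12198 tested genes (grey bars, genes per bin) and for the 32 genes (ticks, red where called) in the digit-before (top) and digit-after libraries (bottom). In the top panel 23 ticks left of 0 are red; in the bottom panel the ticks surround 0 and 3 are red.

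VLDLR_KO was also compared with ROBO4_KO, with the same VLDLR_KO libraries as above. In the digit-before libraries 21 of the 32 genes were called lower in VLDLR_KO than in ROBO4_KO and 1, Ebp, higher, where 13.7% and 15.9% of tested genes were called in these directions (29.6% in all). By FPKM alone, 23 genes were lower and 1 higher without overlap, against 34.8% and 26.8% of tested genes. The median log2 fold change was -0.71, with -1.72 ± 0.17 for Cyp51 (adjusted p = 2.6e-05) and -1.31 ± 0.18 for Hmgcs1 (adjusted p = 0.00026). Without the 3 libraries that stood apart, 10 genes were called, all lower. That fit set 1 library against 1, with the spread taken from other groups, and is no replicated check. For the digit-after codes the genes called were Sqle, Stard4 and Fasn, all 3 higher in VLDLR_KO, and 0 were lower, where 5.59% and 6.34% of tested genes were called. The calls of Stard4 and Fasn were lost without ROBO4_KO replicate 3 or 4 or VLDLR_KO replicate 3 or 5.

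Few of these differences were called between ROBO4_KO and WT. In the digit-before libraries 0 of the 32 genes were called with edgeR, where 0.328% of tested genes were called either way, and DESeq2 also called 0. At an unadjusted p under 0.05, 586 of the tested genes passed. The log2 fold change was below 0 for 30 of the 32 genes, with a median of -0.13, against -0.0034 over all tested genes. By FPKM alone, 8 genes were lower and 0 higher without overlap, against 13% and 15.4% of tested genes. With the digit after B, 1 gene was called lower, Insig1, where 1.22% of tested genes were called lower and 0.369% higher (1.59% in all). The median log2 fold change was -0.056, against 0.010 over all tested genes. Without overlap in FPKM, 6 genes were lower and 4 higher there, against 13.7% and 20.7% of tested genes.

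Within each form, the authors' deposited table, made with DESeq2, had a q-value under 0.05 for 21 of the 32 genes in digit-before VLDLR_KO against WT, all lower in VLDLR_KO, where 8.19% of the 15536 genes with a q-value were lower and 6.78% higher. Among the digit-after libraries the authors' deposited table had 4 lower and 4 higher, against 6.03% and 6.18% of genes. For ROBO4_KO against WT the authors' deposited table had 1 lower gene in the digit-before and 2 in the digit-after libraries, against 0.644% and 1.78% of genes, and 0 higher genes, against 0.766% and 0.518%. The digit-before gene was Sc5d (q = 0.0083), and the digit-after genes were Sc5d (q = 0.00027) and Insig1 (q = 1.9e-07). For VLDLR_KO against WT the authors' q-values of Sc5d were 1.5e-10 (digit-before) and 0.0049 (digit-after), lower in both.

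Other genes of sterol and lipid handling, from lists that do not include the 32, were compared in the same way. The shares of all tested genes called in digit-before VLDLR_KO against WT, 15.6% lower and 17.6% higher, apply to them too. Of 12 further sterol and isoprenoid enzymes that could be tested, 3 fell and 0 rose in digit-before VLDLR_KO against WT. They were Aacs, the acetoacetyl-CoA synthetase (log2 fold change -0.74 ± 0.14, adjusted p = 0.0024), Nceh1, a neutral cholesterol ester hydrolase (-0.46 ± 0.12, adjusted p = 0.014), and Soat1, which esterifies cholesterol (-0.61 ± 0.17, adjusted p = 0.017). Of 14 further fatty acid and NADPH genes that could be tested, 3 rose and 2 fell in the same comparison, which is near those shares. Elovl5, an elongase of polyunsaturated fatty acids, and Hsd17b12, a ketoacyl-CoA reductase, fell by 0.52 and 0.41, and Agpat2, an acyltransferase, rose by 0.64 on the log2 scale; Acss2 and Elovl1 were the others called higher. With the digit after B, 1 gene of each list was called in VLDLR_KO against WT, both higher: Tmem97, a sterol-responsive membrane protein (log2 fold change 0.38 ± 0.11, adjusted p = 0.039), and Me1, the cytosolic malic enzyme that makes NADPH (2.04 ± 0.27, adjusted p = 0.00024).

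Of 9 genes of uptake, efflux and the LXR side, 4 rose and 1 fell in digit-before VLDLR_KO. Arl4c, a small GTPase and LXR target, rose by 0.83 ± 0.12 (adjusted p = 0.00037), and Nr1h2, which encodes LXR-beta, and Smpdl3a rose by 0.62 and 0.27. Mylip, the ubiquitin ligase that degrades lipoprotein receptors, was at 24.3 and 35.8 FPKM in VLDLR_KO, 20.2 and 22.9 FPKM in ROBO4_KO, and 18.4 to 21.8 FPKM in WT (log2 fold change 0.69 ± 0.14, adjusted p = 0.0039). Scarb1, the scavenger receptor for high-density lipoprotein, fell by 0.55 on the log2 scale (adjusted p = 0.0021). Abca1, the cholesterol exporter, was at 5.70 and 13.4 FPKM in digit-before VLDLR_KO and 6.60 to 10.8 FPKM in WT, with overlap, and fell in digit-after VLDLR_KO, at 4.43 to 10.4 FPKM against 18.7 and 26.7 FPKM in WT (log2 fold change -1.69 ± 0.39, adjusted p = 0.013). Of 5 genes of lysosomal cholesterol export, Lipa, the lysosomal acid lipase, was called lower in digit-before VLDLR_KO (-0.51 ± 0.14, adjusted p = 0.016) and 0 were called higher.

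Among genes of SREBP transport and cleavage, Sec23a, a coat protein of the vesicles that carry SCAP and SREBP, fell in digit-before VLDLR_KO against WT (log2 fold change -0.50 ± 0.18, adjusted p = 0.045), with overlapping ranges.

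Levels across the 32 genes differed widely. By median FPKM over the 15 libraries, the order ran from Scd1, Elovl6 and Fads2, at 1.02, 1.69 and 2.12 FPKM, up to Acly, Fdps and Msmo1, at 47.4, 71.1 and 124 FPKM. Scap and Srebf1 had the narrowest ranges relative to their level, 12.2 to 14.96 and 14.0 to 18.7 FPKM. Fads1, at 24.6 to 39.3 FPKM, was far above Fads2 in every library, and Insig1, at 22.7 to 69.5 FPKM, was above Insig2, at 10.9 to 17.8 FPKM, in every library. Near copies that could share reads were at most 0.20 FPKM for Acat3, 0.08 FPKM for Scd4 and 0.03 FPKM for Idi2. Fads3, a paralog of Fads1 and Fads2, was at 1.73 to 3.93 FPKM, against 0.04 to 5.01 FPKM for Fads2, so the level of Fads2 is uncertain where reads could be shared.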

How the data were processed

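RNA of bone macrophages was sequenced in 15 libraries as paired 150-base reads after a SMARTER library preparation, per the labels. The submitters' processing notes name HISAT, Bowtie2 and the build GRCm38.p6; the quantifier is not given in the sources used here. The deposited gene and transcript tables hold estimated counts, of which 92.6% were whole per gene, and further columns of FPKM. The authors made these FPKM values from the reads without naming the unit in the header, and it was inferred because the count divided by the value within a gene followed the library total. The authors' deposited log2 fold changes, which run WT over knockout, and their DESeq2 q-values were read as given, with the sign turned.

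Counts were rounded and fitted in R 4.3.3 with edgeR 4.0.16: 1 mean for each genotype and form of the sample code, filterByExpr by these 6 groups, TMM scaling, two-sided quasi-likelihood tests, and Benjamini-Hochberg adjustment over all 12198 tested genes, with calls at an adjusted p under 0.05. Standard errors (SE) were taken as the size of a log2 fold change over the root of its F statistic. The same model was fitted to transcripts. The procedure was tested on simulated counts with a fixed spread and no difference between forms outside the planted changes. These libraries differ from that setting, so the test does not show how reliable the calls are here. Totals of 18132866 to 19005966 counts per library set the counting precision, and replicates of a group differed by more than sampling noise (chi-square per degree of freedom 5.73 to 89.0).

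The members and gene lists were chosen with earlier results of these data known, so no p-value is given for a list. Values per library are given for Insig1, Insig2, Srebf1, Srebf2, Scap and, in each role group, up to 4 further genes with the smallest adjusted p in digit-before VLDLR_KO against WT; Ebp, Scd1 and Fads2 were added after their values were seen. Up to 3 genes per list outside the 32 are named by the same measure, and Abca1, Me1, Tmem97, Acss2, Elovl1, Nr1h2 and Smpdl3a were added after their values were seen. Alternatives were DESeq2 1.42.0, no filter, each form alone, form as a covariate or ignored, a replicate block, log2(FPKM + 1) with limma 3.58.1, and leaving out libraries. Leaving out 3 libraries together was chosen after seeing the data. Promoter sequences are from RefSeq (GRCm38.p6).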

Additional observations from a re-analysis of the deposited data

Results flagged for a closer look

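Each gene's 5 libraries of a genotype, both forms together, were searched for a library far from the other 4. In 5 of 96 such sets the gap to the nearest library took up most of the range, where chance gives about 1 in 20 for sets of like libraries. These sets mix both forms, between which levels of some genes differ, so that share is only a guide. Cyp51 was lowest in ROBO4_KO replicate 3, at 22.3 FPKM, Scap in ROBO4_KO replicate 1, at 12.2 FPKM, and Srebf1 in ROBO4_KO replicate 1, at 14.0 FPKM. Scd1 was highest in VLDLR_KO replicate 4, at 1.37 FPKM, and Ebp in WT replicate 5, at 36.8 FPKM.

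The effect of the VLDLR knockout against WT differed between the 2 forms of the sample code in 21 genes, tested as an interaction with edgeR. The log2 fold change in the digit-before libraries minus that in the digit-after libraries was -5.14 for Fads2, -3.44 for Scd2, -2.49 for Hsd17b7, -2.19 for Idi1, -2.05 for Elovl6, -1.88 for Sqle, -1.37 for Cyp51 and -1.28 for Fasn. It was -1.19 for Acat2, -1.16 for Fdps, -1.16 for Acaca, -1.14 for Msmo1, -1.13 for Stard4, -1.10 for Sc5d and -1.10 for Fdft1. The smaller differences were -0.99 for Hmgcs1, -0.97 for Lss, -0.78 for Nsdhl, -0.67 for Insig1, -0.62 for Acly and -0.54 for Srebf2. The digit-before arm of this contrast holds 2 VLDLR_KO libraries and the digit-after arm 2 WT libraries.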

How the results depend on the processing

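The digit-before comparisons rest on 2 VLDLR_KO libraries, the form of the code cannot be told apart from whatever it stands for, and counts of a few reads (Scd1, Fads2) are limited by depth. Of the 32 genes, 24 were called in digit-before VLDLR_KO against WT, 23 to 24 with DESeq2, without a filter and with log2(FPKM + 1), 22 in the form alone, 18 without the 3 libraries that stood apart (1 VLDLR_KO library of that form left, the spread taken from other groups), and 22 to 24 when 1 library was left out. Giving both forms 1 shared effect lowered this to 8 with form as a covariate, 4 with form ignored and 5 with the replicate block. In the digit-after comparison, 3 were called in the fit reported here, 5 with DESeq2, 6 in that form alone and 0 with log2(FPKM + 1), and 0 (without WT replicate 2) to 8 when 1 library was left out. The fits with form as a covariate, form ignored or the replicate block have no separate digit-after result: their calls are those given above. The difference between forms was called for 21 genes, and for 13 (without WT replicate 1) to 23 when 1 library was left out. ROBO4_KO against WT gave 0 calls in the digit-before form under all alternatives, and when 1 library was left out. In the digit-after form it gave 1, then 2 with DESeq2, in the form alone and without the 3 libraries, 0 with form as a covariate, form ignored, the replicate block or log2(FPKM + 1), and 0 to 2 when 1 library was left out. VLDLR_KO against ROBO4_KO gave 22 calls in the digit-before form, 3 with form as a covariate, 0 with form ignored, 0 with the replicate block, 10 without the 3 libraries and 15 to 23 when 1 library was left out. In the digit-after form it gave 3, then 0 with form ignored and with the replicate block, and 1 to 4 when 1 library was left out. The replicate block used the digit of the code, which does not pair the libraries: deviations of 12 same-digit pairs correlated at -0.55 to 0.42, 4 of them above 0.1. The fits with 1 shared effect average the forms by construction and give 1 result for both, so they do not describe either form alone. The log2 fold change of Sqle in the digit-after form, 0.46, became -0.28 with form as a covariate, -0.11 with form ignored and -0.25 with the replicate block, and that of Acaca in the digit-before form, -0.85, became 0.080 with form ignored. Of 1188 values for single genes under alternatives, 1075 were counted as the same, 78 lost and 31 gained a call, and 4 reversed. A value counted as reversed only if its sign changed and it was called in at least 1 of the fits compared. Changes of sign without a call, and values without an adjusted p, were counted as the same, so the 1075 need not all have kept their direction.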
